A study of Caenorhabditis elegans with 18 samples.

Results

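Gene expression in Caenorhabditis elegans kept in metal-contaminated control soil was compared between the 4-month and the 14-day sampling time. The comparison used 6 of the 18 arrays of the series, those titled as control at 4 months (3 arrays) and control at 14 days (3 arrays), and all 25546 probe sets with a single gene symbol, which named 25478 genes. The SE and p-values rest on a spread estimated from all 18 arrays unless another fit is named. Worms were of the wild-type strain N2 in every group. The control soil was contaminated with lead (2700 mg/kg), zinc (4200 mg/kg) and cadmium (310 mg/kg) and had no added iron, and the nZVI soil used for comparison had the same metals and nanoscale zero-valent iron, a reactive iron powder that binds metals. Per the labels' protocols, synchronised worms of the last larval stage or young adulthood were placed on the soil with OP50 bacteria for 48 h at 20 °C in the dark, and larvae were filtered off before RNA was extracted from whole worms. The same protocol is given for 0 days, 14 days and 4 months, and the labels do not say from what event these times are counted, so that worm age, culture and soil age cannot be told apart. The series text speaks of independent RNA for the 3 arrays of a group but not of separate cultures, so the p-values weigh differences against a spread between arrays that may be technical.

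Whole-worm RNA mixes tissues that differ widely in what they express. The worm's body is enclosed in a collagen cuticle that is rebuilt at each moult from stage-specific collagens, its gonad fills much of the adult and holds dividing and meiotic germ cells, and its nervous system signals through many families of neuropeptides. The intestine digests bacteria, stores fat and makes yolk, and it is the main site of defence against swallowed microbes.

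The 3 control arrays at 4 months were not alike, which touches every result. Their median standard deviation over probe sets was 0.259, against 0.15 to 0.2 in the other groups. The main fit pools the spread of all groups, so it can understate that of the 4-month control arrays. Arrays 1 and 3 had interquartile ranges of 3.80 and 3.70 on the log2 scale, whereas array 2 had 4.14 and none of the 16 other arrays was under 4.07. Set against the 14-day mean, dimmer probe sets, those at or below the median probe set in mean signal, had median differences of 0.19 and 0.22 on arrays 1 and 3 and of 0.048 on array 2. For brighter probe sets the medians were -0.17, 0.024 and -0.17 on arrays 1, 2 and 3. The lowest medians lay at middle signal, at -0.42, -0.08 and -0.40 for the 2554 probe sets with a mean signal of about 5.66. Results are therefore given also with 4 months represented by array 2 alone, a fit that assumes this array to vary like those of the other groups.

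**Figure D1:**
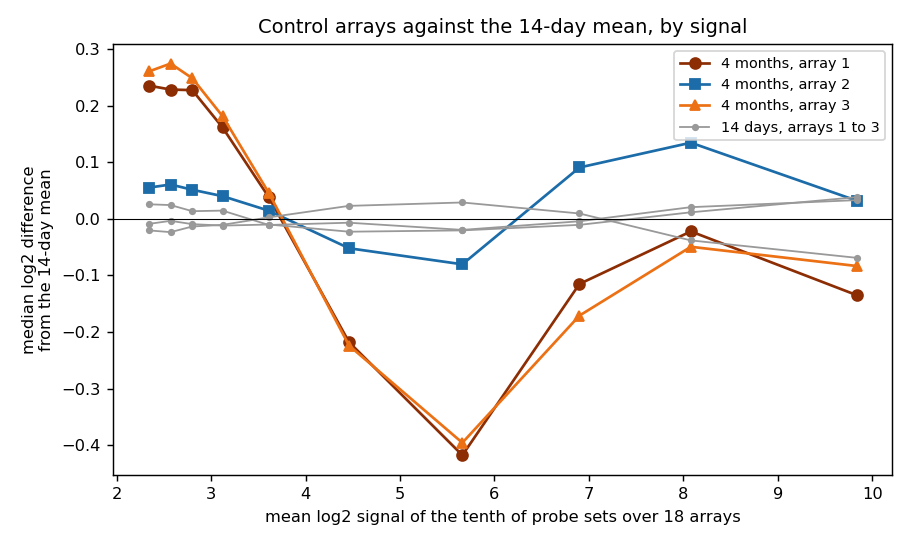
Median log2 difference of each control array from the 14-day mean (vertical axis) for 10 equal bins of the 25546 probe sets ordered by mean log2 signal over 18 arrays (horizontal axis). Arrays 1 and 3 at 4 months lie above 0 at low signal and reach -0.42 and -0.40 at a mean signal of 5.66, and array 2 stays between -0.08 and 0.14.

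Between 14 days and 4 months most FMRFamide-like and other nlp neuropeptide genes, 20 of 37 pals genes, 3 of 4 dauer cuticle genes and some digestive enzyme and muscle genes fell. Some meiosis, cell division, mitochondrial ribosome and collagen genes rose, as counted below. In limma, 5404 of 25546 probe sets were called at an adjusted p under 0.05 (21.2%), with 2230 higher (8.73%) and 3174 lower (12.4%) at 4 months, and 1536 of them changed at least 2-fold. The median change over all probe sets was 0.10. With array 2 alone at 4 months, 318 were called, 62 higher (0.243%) and 256 lower (1.0%). The 4-month values lay wholly above those of 14 days for 21.1% of probe sets and wholly below for 16.9%. The count also moved by over 1.5 times without array 1 (2538) or array 3 (3204) at 4 months, and without array 2 (3040) or array 3 (3433) at 14 days. With any single array left out, 2.88% to 15.3% of probe sets were called higher and 7.05% to 16.4% lower. Among the brighter probe sets 22.7% were called lower, against 2.01% of the dimmer ones, so lists of well-expressed genes are read against the former share.

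**Figure D2:**
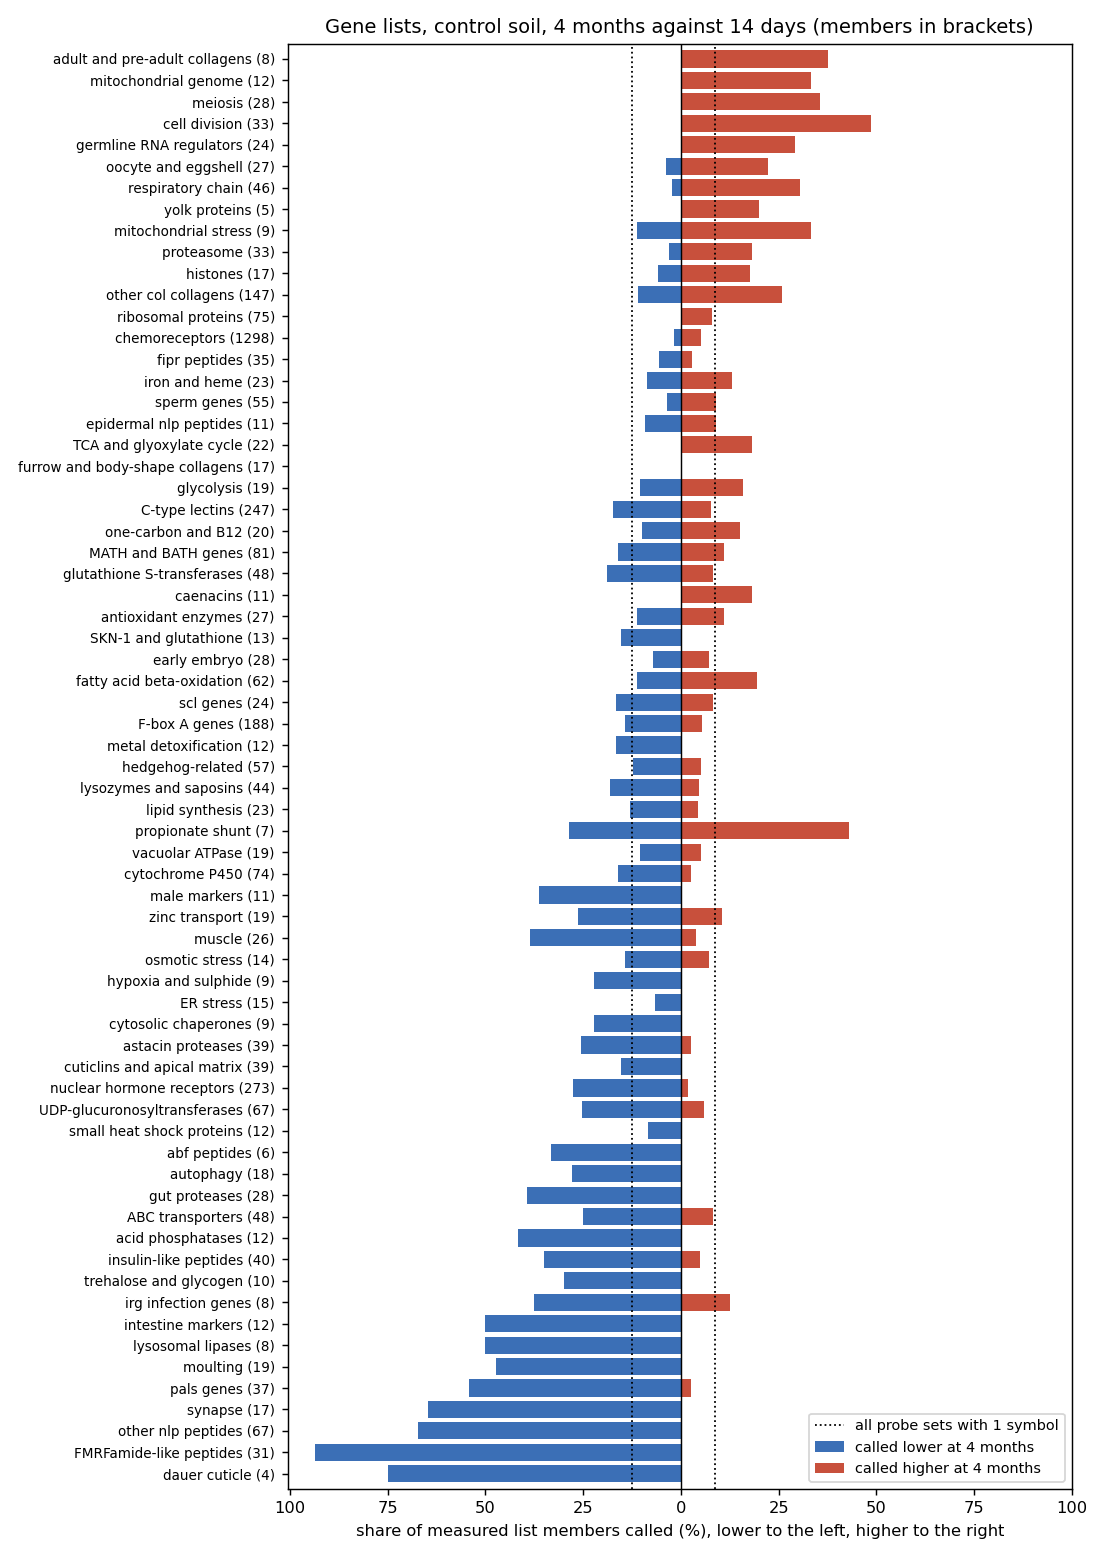
Share of the measured members of 67 gene lists called lower (blue, to the left) or higher (red, to the right) at 4 months than at 14 days in control soil, ordered by median change. Dotted lines mark 12.4% lower and 8.73% higher among all probe sets with 1 symbol, and the FMRFamide-like peptides reach 93.5% lower.

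The 15 largest falls held 7 col collagen genes, the cuticlin gene cut-1 and 2 genes of the groundhog-like family of secreted proteins related to Hedgehog. One of these, grl-20, had log2 signals of 9.51, 9.27 and 9.63 at 14 days and of 4.64, 4.48 and 4.76 at 4 months. The groups lay far apart, and the change was -4.84 ± 0.52 (SE, n = 3 and 3), a 28.7-fold fall (limma, adjusted p = 2.89e-05). Its relative grl-25 fell by 3.45. In the hedgehog-related list to which both belong, 7 of 57 genes fell (12.3%) and 3 rose (5.26%), near the shares over all probe sets. The collagen gene col-2, which in this worm is known from the dauer larva, an arrested and stress-resistant stage, read 6.76, 6.95 and 7.05 at 14 days and 2.31, 3.03 and 2.43 at 4 months. It fell by 4.33 ± 0.64 (adjusted p = 0.000345), and array 2 alone gave a change of -3.89 that missed the threshold (adjusted p = 0.062).

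The dauer cuticle list held 4 genes, of which col-2, col-40 and cut-1 fell and cut-6 had a change of -0.19. The gene cut-1 encodes a cuticlin, an insoluble cuticle protein of the dauer larva, and its signals of 8.53, 7.94 and 8.40 at 14 days stood above 5.66, 4.60 and 5.57 at 4 months. The 3 calls held without each array in turn. Larger cuticle falls also included col-36, col-185, col-37, col-102, col-43 and col-44, with changes between -4.33 and -3.33. Collagen genes form a large family of similar sequences, so that probe sets of close relatives may share signal.

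All of the 15 largest falls, from -3.01 to -4.84, were protein-coding genes, all 15 were called without each array in turn, and 13 were called with array 2 alone. Of the 15, 14 also fell in nZVI soil, on arrays that enter the control comparison only through the pooled spread. The exception was T05A8.2, with -3.09 in control soil and -0.20 (adjusted p = 0.695) in nZVI soil. Of the 15 largest rises, 13 were called without each array in turn, 4 with array 2 alone, and 3 in nZVI soil. Beside the cuticle genes the 15 largest falls held clec-7, a C-type lectin gene of a family that includes many genes of intestinal defence, and mbug-1, C30G12.2 and F09C6.13.

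Some other cuticle genes rose. Of 147 col collagen genes outside the list of adult and pre-adult collagens, 38 rose (25.9%) and 16 fell (10.9%). The col genes named above as falling are among these 147. Without single arrays 29 to 47 of the 147 rose and 13 to 17 fell. Their median change was 0.22, and 0.135 with array 2 alone. The largest rises among them were those of col-143 (2.11), col-162 (1.94) and col-81 (1.90). Signals of col-81 were 7.90, 7.86 and 7.49 at 14 days and 9.62, 9.46 and 9.86 at 4 months, with no overlap. In the list of adult and pre-adult collagens 3 of 8 rose and none fell, with a median of 1.01. They were col-7, col-63 and col-19, the last a standard marker of the adult cuticle, which read 6.50, 6.38 and 6.40 at 14 days and 7.97, 7.34 and 8.08 at 4 months (change 1.37, adjusted p = 0.00406). The list's median difference from the 14-day mean was lowest on 4-month array 2, at 0.57, and 1.16 on array 3. With array 2 alone limma called 0 of the 8 (3 at an unadjusted p under 0.05).

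Genes of moulting, the shedding of the old cuticle, were lower in part. Of 19 members 9 fell and none rose, with a median of -0.62. The median was -0.96, -0.31 and -0.56 on the 4-month arrays, and the count of falls ran from 3 to 11 when single arrays were left out. The gene bli-3, a dual oxidase that cross-links cuticle proteins, fell by 0.87, and the peroxidase gene mlt-7 fell by 0.87. The gene lin-42, a worm period homologue whose level oscillates with the larval moults, had a change of -0.57 that was not called (adjusted p = 0.226).

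**Figure D3:**
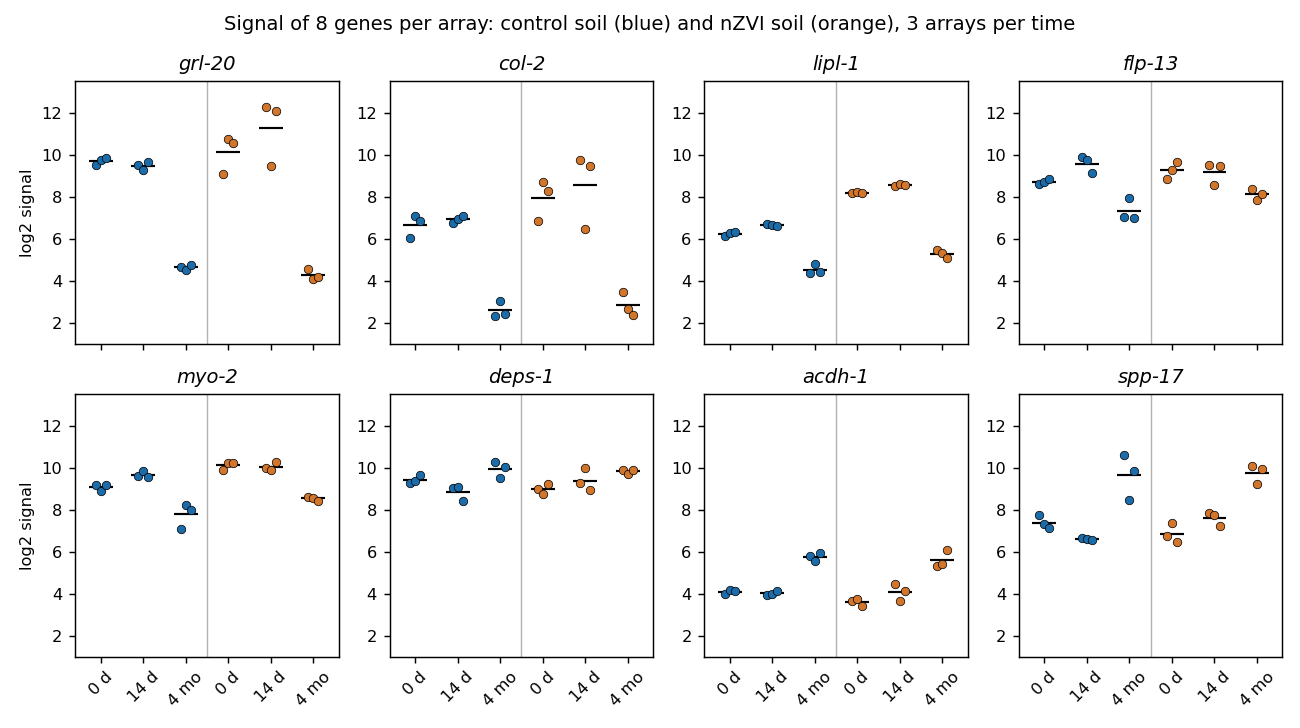
Log2 signal of 8 genes (panels) on each array by soil and sampling time, 3 arrays per group, with black bars at group means; 4 genes of the top row and myo-2 are lower and deps-1, acdh-1 and spp-17 higher at 4 months than at 14 days in control soil. In control soil no 4-month value of these genes overlaps the 14-day values.

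Neuropeptide genes fell almost as a family. FMRFamide-like peptides are short secreted signals made by neurons, and 29 of the 31 genes measured fell while none rose, with changes from -2.28 to -0.055 and a median of -0.94. For flp-13, which encodes peptides released by a neuron that promotes stress-induced sleep, signals were 9.88, 9.75 and 9.10 at 14 days and 7.01, 7.92 and 6.97 at 4 months. The groups did not overlap, and the change was -2.28 ± 0.30 (4.84-fold, adjusted p = 0.000125). The gene flp-4 read 10.11, 10.10 and 10.04 at 14 days and 8.19, 8.83 and 8.81 at 4 months, a change of -1.47 (adjusted p = 7.78e-05).

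The fall was seen on each 4-month array, with list medians of -1.16, -0.70 and -0.98 against -0.080 to 0.035 on the 14-day arrays. Of the 31 genes, 24 to 27 fell when any single array was left out, and 2 were called with array 2 alone (25 at an unadjusted p under 0.05). Of the 31, 30 were among the brighter probe sets. Fewer cells of a type and less RNA per cell cannot be told apart in RNA of whole worms.

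Other neuropeptide families and the machinery of release followed to different extents. Of 67 other nlp peptide genes, 45 fell and none rose, with a median of -0.85. The largest called falls were those of nlp-67 (-2.15), nlp-8 (-1.40), nlp-12 (-1.39) and nlp-11 (-1.31), and the list medians on the 4-month arrays were -1.06, -0.59 and -0.96. One of the 67 was called with array 2 alone (32 at an unadjusted p under 0.05). Of 40 insulin-like peptide genes, 14 fell and 2 rose, with 9 to 14 falls when single arrays were left out and 0 called in limma with array 2 alone (13 at an unadjusted p under 0.05). The gene ins-1, one of those that fell, had a change of -1.18.

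In the synapse list 11 of 17 genes fell, among them egl-3 and egl-21, which encode enzymes that cut and trim neuropeptide precursors. Signals of egl-3 were 12.06, 12.17 and 12.10 at 14 days and 10.31, 11.57 and 11.01 at 4 months, the highest on array 2. The list median was -1.21 and -0.89 on arrays 1 and 3 and -0.25 on array 2, and with array 2 alone 0 of 17 were called in limma (3 at an unadjusted p under 0.05). The number that fell ran from 5 to 16 when single arrays were left out.

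Gene classes, taken as symbol prefixes with at least 10 measured genes, gave related groups. Beside flp and nlp, the classes with the largest share called lower were mfsd (8 of 11), osm (7 of 10), egl (16 of 26), ncx (6 of 10), pals (20 of 37) and exc (5 of 10). The osm genes act largely in sensory cilia, egl names mutants defective in egg laying, and ncx genes encode sodium-calcium exchangers. With array 2 alone the medians of the mfsd, osm, egl and exc genes were -0.30, -0.38, -0.47 and -0.44, and limma called 0 of them (4, 3, 11 and 3 at an unadjusted p under 0.05). Without single arrays their counts of falls ran from 3 to 8, 3 to 7, 9 to 17 and 3 to 6, and those of ncx from 3 to 8.

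**Figure D4:**
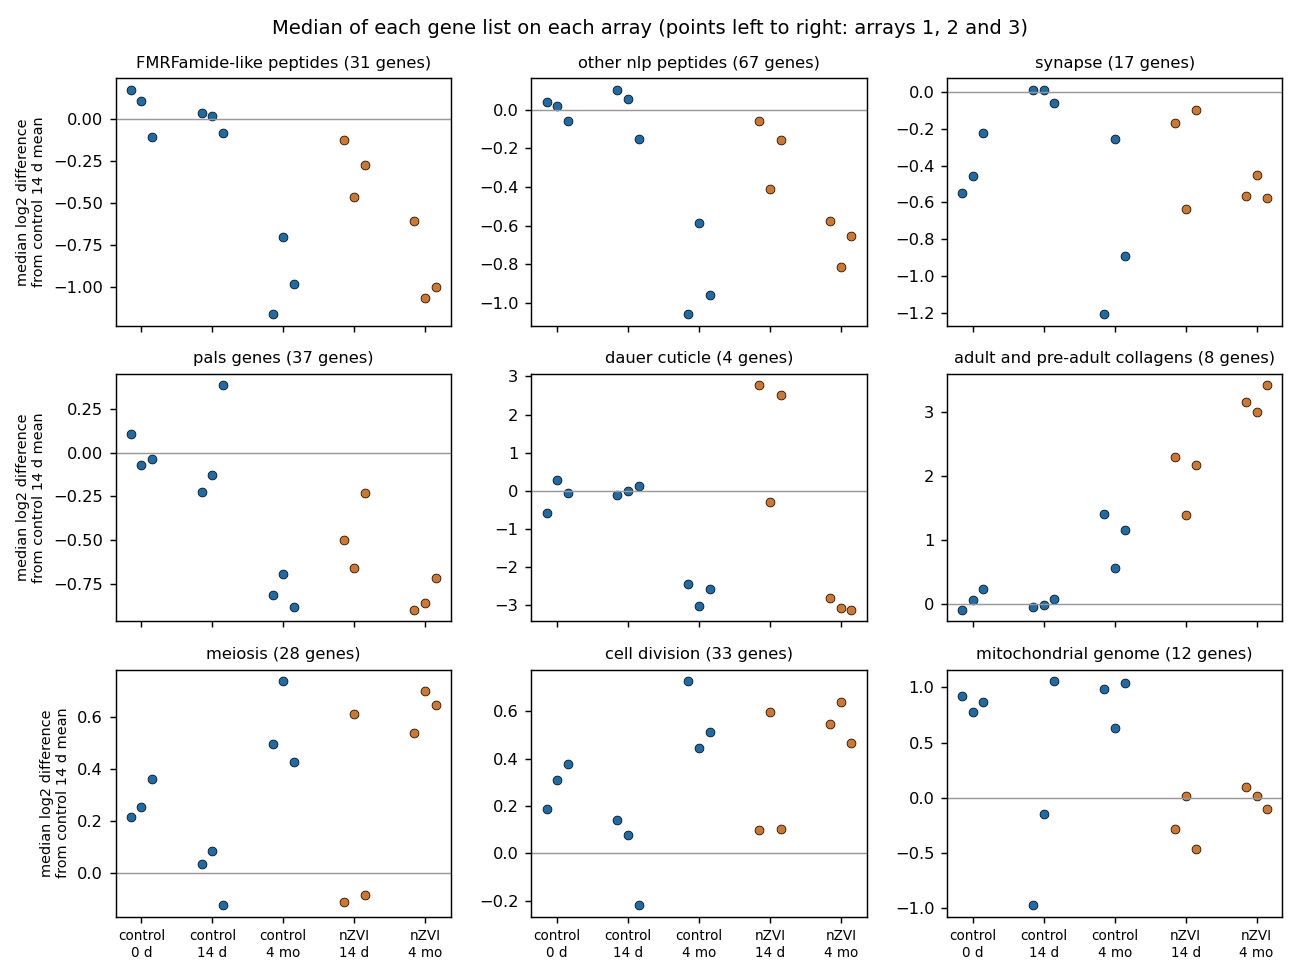
Median log2 difference of 9 gene lists from the control 14-day mean on single arrays (3 points per group, arrays 1 to 3 from left to right; control blue, nZVI orange). The FMRFamide-like peptides lie between -1.16 and -0.70 on the control 4-month arrays, and the mitochondrial genome ranges from -0.97 to 1.06 within the control 14-day arrays.

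The pals genes, a family with many members induced in C. elegans by intracellular infection, fell in 20 of 37 cases and rose in 1. Signals of pals-33 were 6.79, 6.79 and 7.91 at 14 days and 4.52, 5.56 and 4.53 at 4 months, with a change of -2.30 (adjusted p = 0.000254). The list median differed little between the 4-month arrays, at -0.81, -0.69 and -0.89, and was 0.39 on 14-day array 3 against -0.23 and -0.13 on the other two. A single pals gene was called with array 2 alone (17 at an unadjusted p under 0.05).

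Genes of digestion and defence fell in part. The lysosomal lipase gene lipl-1, known to rise on fasting, read 6.70, 6.66 and 6.61 at 14 days and 4.35, 4.77 and 4.39 at 4 months. Its change of -2.15 ± 0.14 was 4.44-fold (adjusted p = 1.04e-07) and was called with array 2 alone as well (adjusted p = 9.59e-05). Of 8 lysosomal lipases 4 fell and none rose, with a median of -0.54, and -0.47 with array 2 alone. The acid phosphatase gene pho-11 had signals of 8.29, 8.04 and 8.16 at 14 days and 5.95, 5.88 and 5.98 at 4 months, a change of -2.23. In its list 5 of 12 genes fell, and the list median was -0.34, and -0.076 with array 2 alone.

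Of 28 gut protease genes 11 fell and none rose. The largest were cpr-2 (-2.98), of the cathepsin B family, and asp-7 (-2.46), of the aspartyl proteases. Without single arrays 9 to 11 of the 28 fell, and the list median was -0.300, and -0.295 with array 2 alone. The lysozyme gene lys-8 fell by 1.53. Its list held the largest rise of a protein-coding gene, spp-17, a saposin-like gene with signals of 6.63, 6.59 and 6.54 at 14 days and 10.61, 8.45 and 9.83 at 4 months. That change was 3.04 ± 0.39 (8.24-fold, adjusted p = 0.000122), with the lowest 4-month value again on array 2. Of 247 C-type lectin genes, 43 fell (17.4%) and 19 rose (7.69%), with a median of 0.096, shares not far from those over all probe sets. The gene clec-60 fell by 2.76.

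Of 12 intestine markers 6 fell, with medians of -0.81 and -0.65 on arrays 1 and 3 and of -0.065 on array 2. The count ran from 2 to 8 when single arrays were left out, and with array 2 alone limma called 0 (1 at an unadjusted p under 0.05). In the muscle list 10 of 26 genes fell and 1 rose, with 6 to 10 falls when single arrays were left out and 4 with array 2 alone. The pharyngeal muscle myosin genes myo-2 and myo-1 led it. Signals of myo-2 were 9.60, 9.83 and 9.57 at 14 days and between 7.08 and 8.23 at 4 months, the lowest on array 1, with a change of -1.90 (adjusted p = 5.5e-05). Signals of myo-1 were 9.81, 10.07 and 9.70 against 8.06, 8.55 and 8.29, and both genes were called with array 2 alone. The median change of the list was -0.11.

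Some genes of the germline and of cell division rose, by smaller steps, and most members of these lists were not called. Of 28 meiosis genes 10 rose and none fell, all 28 had changes above 0, and the median was 0.53 against 0.10 over all probe sets. The crossover gene cosa-1 read 6.62, 6.22 and 6.21 at 14 days and 7.39, 7.21 and 7.19 at 4 months, a change of 0.92 ± 0.22 (1.89-fold, adjusted p = 0.00966). The chromosome axis gene him-3 rose by 0.77. The list medians on the 4-month arrays were 0.50, 0.74 and 0.43, highest on array 2.

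Of 33 cell division genes 16 rose and none fell, with a median of 0.52, and the named ones were rnr-1 (0.81), for a ribonucleotide reductase subunit, mcm-6 (0.85), for a subunit of the replicative helicase, pri-1 and cyb-1. Of 24 germline RNA regulators 7 rose (1 to 5 without single arrays), led by the P granule gene deps-1, with signals of 9.04, 9.08 and 8.39 at 14 days and 10.28, 9.52 and 10.05 at 4 months. Of 27 oocyte and eggshell genes, all of them among the brighter probe sets, 6 rose (22.2%) and 1 fell (3.7%). Without single arrays 0 to 9 of the 27 rose, and their median was 0.44, and 0.28 with array 2 alone. These counts were less stable than the medians: without single arrays, 1 to 9 meiosis genes and 3 to 17 cell division genes were called higher, and with array 2 alone 0 of each list were called in limma (19 and 6 at an unadjusted p under 0.05). On 14-day array 3 the medians of meiosis, cell division and germline RNA regulators were -0.12, -0.22 and -0.36, lower than on its companions.

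Markers of adult reproduction and of other stages gave a mixed picture. Of 5 yolk protein genes only vit-4 rose (1.43), and vit-2 read 10.67, 10.60 and 10.61 at 14 days and 11.41, 10.21 and 10.57 at 4 months (change 0.10, adjusted p = 0.755, and -0.42 with array 2 alone). Of 55 sperm genes 5 rose (9.09%) and 2 fell (3.64%), against 8.73% and 12.4% of all probe sets. Among 28 early embryo genes 2 rose and 2 fell (7.14% each), under both shares. Among 11 male markers 4 fell (36.4%), with 1 to 4 falls when single arrays were left out. Their medians on the 4-month arrays were -0.34, -0.08 and -0.29. Their part in the other changes was not tested.

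Genes of mitochondrial protein synthesis rose in part. Of 29 mrps genes 14 rose and of 41 mrpl genes 16 rose, both encoding proteins of the mitochondrial ribosome, and none of either class fell. Their medians were 0.57 and 0.45, and 0.45 and 0.47 with array 2 alone, where 0 of 29 and 1 of 41 were called in limma (12 and 15 at an unadjusted p under 0.05). Without single arrays the counts ran from 5 to 16 and from 9 to 19. In the respiratory chain list 14 of 46 genes rose and 1 fell, with asb-1 and asg-1 of the ATP synthase among those that rose (0.98 and 0.97). That count ran from 3 to 16 without single arrays, and with array 2 alone limma called 0 of the 46 (10 at an unadjusted p under 0.05). The other classes with the largest share called higher were him (5 of 10), ech (5 of 10), acdh (5 of 12), cyn (6 of 16), rpb (4 of 11) and eif (8 of 23). Of all brighter probe sets 9.2% were called higher. Without single arrays the class counts ran from 0 to 3, 2 to 4, 2 to 5, 2 to 6, 2 to 6 and 2 to 7, in that order. The class medians with array 2 alone were 0.555, 0.469, 0.633, 0.385, 0.366 and 0.303.

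The genes of the mitochondrial genome itself had a median of 0.87, but 14-day arrays spread over a wide range, with medians of -0.97, -0.14 and 1.06, and the 4-month medians of 0.98, 0.63 and 1.04 lay inside it. The values of no member separated the groups. Of 12 members 4 were called higher (ND3, ND4L, ND6 and ATP6, named here after their values were seen), and 0 to 12 were called when single arrays were left out.

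Among fat-burning genes, acdh-1, an acyl-CoA dehydrogenase whose level is known to respond to vitamin B12 supply, had signals of 3.93, 3.99 and 4.11 at 14 days and 5.79, 5.56 and 5.96 at 4 months. The groups were well apart and the change was 1.75 ± 0.21 (3.37-fold, adjusted p = 6.32e-05). In the propionate shunt list that holds it, 3 of 7 genes rose and 2 fell, ech-6 rising by 0.60 and the regulator nhr-68 falling by 0.87. The gene acs-2, an acyl-CoA synthetase that rises on fasting, fell by 1.72. Of 62 beta-oxidation genes, 52 of them among the brighter probe sets, 12 rose (19.4%) and 7 fell (11.3%). The shares over the brighter probe sets were 9.2% and 22.7%. Without single arrays 4 to 10 of the 62 rose and 4 to 12 fell.

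Metal detoxification and zinc transport genes were set against the brighter probe sets, of which 22.7% were called lower and 9.2% higher. The labels give the same metals in the soil at both times. Of 12 metal detoxification genes, 11 of them among the brighter probe sets, 2 fell (16.7%, under that share) and none rose. The metallothionein gene mtl-1, whose product binds cadmium and zinc, read 10.99, 11.08 and 11.20 at 14 days and 10.70, 10.61 and 10.08 at 4 months, a change of -0.62 ± 0.18 (adjusted p = 0.024) that was not called with array 2 alone (adjusted p = 0.36). The other was mrp-1, a transporter gene with a change of -0.77. Changes of mtl-2 (-0.23, adjusted p = 0.273) and cdr-1 (-0.33, adjusted p = 0.179) were not called.

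Of 19 zinc transport genes, 18 of them among the brighter probe sets, 5 fell (26.3%) and 2 rose (10.5%). Both were near the shares of 22.7% and 9.2% over the brighter probe sets. Without single arrays 3 to 5 fell, and with array 2 alone limma called 0 (4 at an unadjusted p under 0.05). They included hizr-1, the receptor that senses high zinc, with a change of -1.04, and cdf-2, a zinc storage transporter gene, with -0.85. For the iron store ferritin, ftn-1 had a change of -0.36 and ftn-2 of -0.14, neither of which was called, and of 23 iron and heme genes 3 rose and 2 fell. Among stress genes, sod-3 (-0.03), gst-4 (0.17) and hsp-16.2 (-0.45) were not called, and 1 of 12 small heat shock genes fell, hsp-12.6 (-0.91). The antioxidant gene gpx-3 fell by 2.44 and the catalase gene ctl-2 by 1.22.

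Non-coding RNA genes made up 10 of the 15 largest rises. The largest was F41H8.5, with 5.01, 5.20 and 4.99 at 14 days and 9.06, 6.99 and 9.16 at 4 months (change 3.33, adjusted p = 0.00033). In 9 of the 10 both array 1 and array 3 stood above array 2, the exception being C52D10.130 with 7.24, 5.42 and 5.26. With array 2 alone their adjusted p ran from 0.0937 to 0.657. Of 5972 ncRNA genes 759 rose (12.7%) and 147 fell (2.46%), and 1 rose and 4 fell with array 2 alone. Of the 5972, 569 were among the brighter probe sets. The median difference was 0.28 and 0.31 on arrays 1 and 3 and 0.048 on array 2. For 1298 chemoreceptor genes, of which 29 were among the brighter probe sets, the medians were 0.21, 0.04 and 0.22. Of these genes 66 were called higher (5.08%) and 23 lower (1.77%), both under the shares of 8.25% and 2.01% over the dimmer probe sets. Without single arrays 15 to 225 chemoreceptor genes were called higher. With array 2 alone limma called 0 of them (62 at an unadjusted p under 0.05).

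With all arrays, a larger share of genes fell on the X chromosome than on any autosome, counted over protein-coding genes placed by the RefSeq annotation. Of 2589 X-linked genes 717 fell (27.7%) and 77 rose (2.97%), with a median of -0.27, whereas 12.4% to 14.7% of the genes of each autosome fell, with medians between 0.05 and 0.09. The X-linked median was -0.36, -0.14 and -0.30 on the 4-month arrays. The order of the shares did not hold with array 2 alone, where 38 of 2589 X-linked genes fell, against 53 of 3245 on chromosome II and 79 of 4695 on chromosome V. Without single arrays the X-linked falls ran from 390 to 944. In nZVI soil 8.15% of X-linked genes fell and 3.44% to 7.60% of those of the autosomes. No test was made of the difference between chromosomes.

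The same times were compared in nZVI soil on 6 other arrays. There 2227 probe sets were called (8.72%), 1063 higher (4.16%) and 1164 lower (4.56%), and array 2 at 14 days stood apart from its group, with 4281 called without it. Without array 1 or array 3 at 14 days the count was 904 or 985, and without array 2 or array 3 at 4 months it was 1080 or 1435. Of the 3174 probe sets lower in control soil 764 were lower in nZVI soil too, which is 24.1% of the control list and 65.6% of the nZVI list. For higher ones the shared number was 175, or 7.85% and 16.5%. It was 92 with the replicate number as a block in a fit of those 6 nZVI arrays only. Opposite calls were made for 49. Over 25478 genes the changes correlated with a Pearson r of 0.46 and a Spearman rho of 0.36, as a description over genes that share arrays and normalisation and are not independent.

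**Figure D5:**
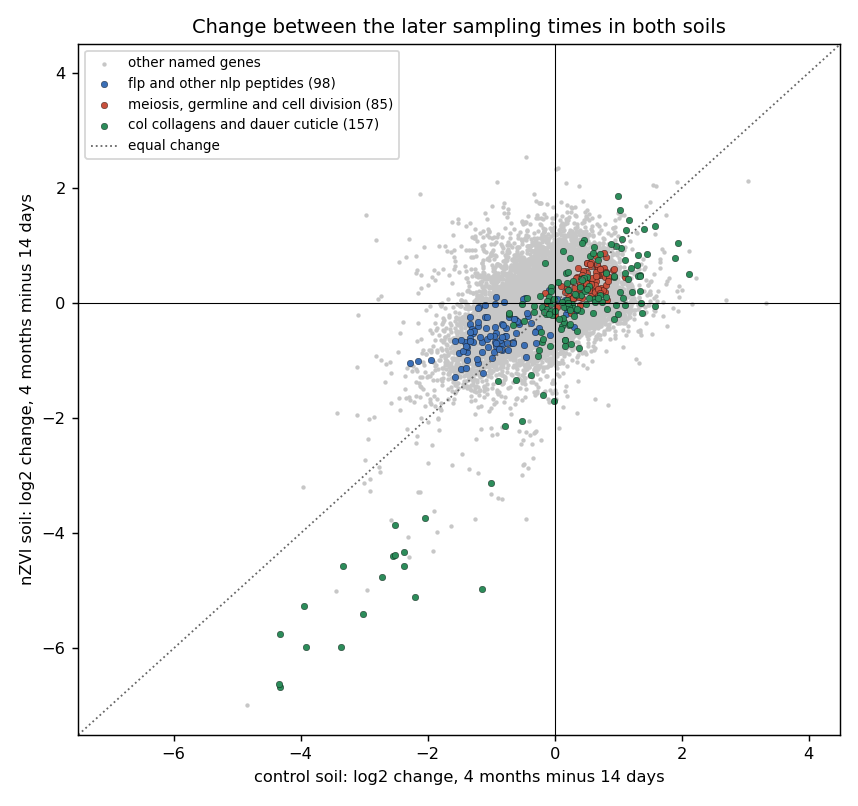
Log2 change from 14 days to 4 months in control soil (horizontal axis) and in nZVI soil (vertical axis) for 25478 genes, with neuropeptide genes in blue, germline and cell division genes in red and collagen genes in green. The steepest collagen falls lie below the dotted line of equal change, and most neuropeptide genes are under 0 on both axes.

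In nZVI soil grl-20 and col-2 fell too, with changes of -6.99 and -5.74, as did 3 of the 4 dauer cuticle genes. Of the 147 col genes outside the adult and pre-adult list 26 fell and 12 rose there, with a median of -0.018. Of the 8 adult and pre-adult collagens 2 rose there and none fell. The difference between soils was not called in limma for grl-20 and col-2 (adjusted p = 0.144 and 0.40), and was called for 5 of the 147 col genes. Of the FMRFamide-like genes 17 of 31 fell in nZVI soil, with a median of -0.64, and 11 fell with the replicate block, fitted to only the arrays compared. The test of the difference between soils in limma called 0 of the 31 (8 at an unadjusted p under 0.05). The 17 synapse genes had a median of -0.13 there, with 0 called (3 at an unadjusted p under 0.05) and 1 called with the replicate block, and the difference between soils was called for 0 (8 at an unadjusted p under 0.05). The gene lipl-1 fell by 3.27 in nZVI soil, more than in control soil (adjusted p of the difference 0.0107, and 0.0631 with the replicate block), and acdh-1 and spp-17 rose by 1.53 and 2.13.

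The difference between the soils in the change over time was called for 305 probe sets (1.19%), 53 with a higher (0.207%) and 252 with a lower (0.986%) change in control soil. Among the 6 largest in each direction was C25F9.2, which fell from 9.19, 9.57 and 9.95 to 5.29, 7.93 and 6.57 in control soil and rose from 4.34, 5.41 and 5.22 to 6.22, 6.62 and 6.70 in nZVI soil. The difference was -4.50 ± 0.63 (adjusted p = 0.00457). The 305 calls became 3296 without control array 2 at 4 months, and 130 and 83 without arrays 1 and 3. They became 128 and 61 without control arrays 1 and 2 at 14 days, and 77, 472 and 200 without nZVI arrays 1, 2 and 3 at 14 days. Without nZVI array 2 at 4 months they became 123, with fewer still without array 3. With the replicate number as a block, in a fit of only the arrays compared, they became 185.

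Against 0 days in control soil, the 14-day and 4-month values share the 0-day arrays, and each shares its own arrays with the comparison above. For grl-20 the change was -0.22 at 14 days and -5.06 at 4 months. For flp-13 the changes were 0.86 and -1.41, for myo-2 0.59 and -1.31, for spp-17 -0.80 and 2.25, and for acdh-1 -0.07 and 1.68. The meiosis gene cosa-1 had changes of -0.65 and 0.27, neither of which was called. Against the 14-day mean, some lists at 0 days lay on the side of their 4-month medians. The 0-day medians were -0.70, -0.62 and -0.44 for moulting, -0.67, -0.72 and -0.48 for intestine markers and -0.55, -0.45 and -0.22 for synapse genes. They were 0.51, 0.59 and 0.40 for mrps genes and -0.26, -0.24 and -0.19 for X-linked genes. For FMRFamide-like genes they were 0.175, 0.109 and -0.109.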

How the data were processed

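RNA of 18 samples was hybridised to the Gene 1.0 ST array for C. elegans, 1 array per sample. What the authors deposited is a table of log2 values, 1 per probe set and array. RMA and the Transcriptome Analysis Console are listed in the submitters' processing notes, with no version in those notes. Since RMA brings the arrays' distributions closer together, a shift of most genes together would largely be lost. Interquartile ranges of the deposited values still ran from 3.70 to 4.21. Of 28387 probe sets, 25546 had 1 gene symbol in the platform annotation, 646 several and 2195 none, and 25495 were matched to RefSeq names by Entrez identifier. For lists, a gene was represented by its brightest probe set. limma 3.58.1 in R 4.3.3 was fitted to all 18 arrays with 1 coefficient per group, with two-sided tests, Benjamini-Hochberg adjustment over 28387 probe sets and calls at an adjusted p under 0.05. The unit is log2 throughout, and 3 arrays per group limit precision. The fit was tested on simulated data.

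Genes named are those with non-overlapping values among calls: the 15 largest rises and falls, up to 4 members with the smallest p of each of 67 lists, the 6 largest differences between soils in each direction, and always col-19, lin-42, vit-2, hsp-16.2, gst-4, sod-3, the ferritin genes ftn-2 and ftn-1, cdr-1, and the metallothionein genes mtl-2 and mtl-1. Genes named outside this rule (col-63, cut-6, and the mitochondrial genes) were chosen after their values were seen. Members and lists were chosen with earlier results of these data known, and 18 listed genes were not matched by name. Deviations from group means of same-numbered arrays correlated at 0.0616 to 0.0977 in control soil and 0.108 to 0.209 in nZVI soil, so only in nZVI soil did the numbers meet the bar for pairs. Fits have no replicate block unless named. Each blocked fit used only the arrays compared, so that it differs from the main fit in its arrays as well as in the block. On those arrays alone the nZVI calls were 1518 without and 1897 with the block. The differences between soils were 110 without and 185 with it. A blocked nZVI value is given where it changed a call or moved a count by over 1.5 times from the main fit. Alternatives covered normalisation, array weights, the prior, dim probe sets, single arrays left out and the replicate block.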

Additional observations from a re-analysis of the deposited data

Results flagged for a closer look

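The change from 14 days to 4 months differed between control and nZVI soil for the 12 genes below, by the limma test of the difference (adjusted p from 0.00457 to 0.0491). The change in control soil was lower than that in nZVI soil by 4.4977 log2 units for C25F9.2, that is a difference of -4.4977. The differences were -3.9194 for T28B11.11, -3.1617 for T28B11.22, -3.1375 for T28B11.4, -3.0305 for F45H7.8 and -3.0163 for Y42A5A.11. The last 5 are ncRNA genes. On the higher side the differences were 3.3292 for F41H8.5, 2.0458 for col-158, 1.7553 for F47F6.13, 1.6348 for col-167, 1.5443 for F38B6.16 and 1.4416 for C53C11.7, all of them ncRNA genes except both col genes. With the replicate number as a block, F47F6.13, F38B6.16 and C53C11.7 missed the threshold (adjusted p = 0.0712, 0.0881 and 0.115). For col-158 both soils showed a fall, of -2.71 in control soil and -4.76 in nZVI soil.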

How the results depend on the processing

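In control soil, 5404 probe sets were called. The count was 8153 with array weights, 1785 when only the 6 arrays compared were fitted, 1904 with the replicate number as a block in those 6 arrays, and 318 with array 2 alone at 4 months. It ran from 2538 to 8101 when single arrays were left out, and was 1586 with a 2-fold change and an unadjusted p under 0.05 and 1536 with a 2-fold change and an adjusted p. It was 5520 with arrays centred on their medians, 5048 with a further quantile normalisation and 5515 with an intensity trend. In nZVI soil the 2227 calls became 6623 with array weights, 1897 with the replicate block (1540 of the 2227 kept) and 1518 with only the arrays compared, and ran from 904 to 4281 with single arrays left out. Centring on medians moved the nZVI calls from 47.7% to 37.1% higher. The 305 differences between soils became 3360 with array weights, 185 with the replicate block and 110 with only the arrays compared (for nZVI soil and for the difference, an alternative chosen after seeing the data), and ran from 61 to 3296 with single arrays left out. Centring moved the higher side from 53 of 305 to 77 of 248. The cause of these shifts was not tested, but fewer arrays enter several of the fits. Of the named genes 3 changed direction, none of them called. They were vit-2 (0.10, but -0.42 with array 2 alone and -0.24 to 0.36 without single arrays), gst-4 (0.17, and -0.10 to 0.43 without single arrays) and sod-3 (-0.032, but 0.20 with array 2 alone and -0.15 to 0.035 without single arrays). Of 264 named genes, 193 missed the threshold with array 2 alone, 98 with only 6 arrays, 87 with the replicate block and 62 without 4-month array 1. In control soil each array's deviations correlated best with those of its own number, as a hint from the data and not the design.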
